A study of Mus musculus with 6 samples.

Results

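The genes described are 40 genes known from the response of neurons to damaged axons and from axon regrowth, measured in the lumbar spinal cord of mice with pancreatic cancer cells in the sciatic nerve and of 2 control groups. They were chosen by name, with earlier results of these data known, so the list got no test and its counts are descriptions. Every probe set whose gene symbol in the platform annotation is one of the 40 was taken. All 40 were found, among 18193 genes named on the array, and 101 of the 45037 probe sets that are not controls read them. Each mouse was a male of the severe combined immunodeficiency (SCID) strain, 9 weeks old when housed and 15 weeks old at sampling, and RNA came from cord segment L1. The N-inv (neural invasion) group had cells of Capan-1, a line from a human pancreatic tumour, injected into the left sciatic nerve, and all groups were sampled at 6 weeks. The controls were a subcutaneous model (SC) and a PBS model, for which the labels state neither the cells used nor the place of the PBS injection. Each group had 2 arrays. SCID mice lack mature lymphocytes, in all 3 groups. The labels name no separate animals for the arrays of a group, so p-values measure only the spread between these arrays, which may be technical.

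A neuron whose axon is cut or damaged switches from transmission to regrowth. Signals carried back from the injury activate the JNK kinases and the STAT pathway, which switch on transcription factors such as Atf3, Jun and Sox11. These act on genes for proteins of the growth cone, tubulins, adhesion molecules and peptides. Motor neurons of the lumbar cord send their axons through the sciatic nerve, while the cell bodies of its sensory axons lie outside the cord, in the dorsal root ganglia.

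All levels are array intensities after scaling each array to a common median of 255.8, and levels of different genes cannot be set against each other. Differences are on the log2(intensity + 25.58) scale, which understates changes of dim genes. A probe set was tested where its mean lay above the 40th percentile, which corresponds to an intensity of 147.5, and a gene is its brightest probe set. By this rule 38 of the 40 members were tested. Sprr1a passed the filter through the N-inv arrays and SC replicate 2, since its intensity in PBS lay below 147.5. Plaur, at 137.2 and 146.5, also lay below it in PBS. The control arrays of Sdc1, at 103.8 to 182.7, lay around it, and its N-inv arrays, at 281.7 and 304.5, raised its mean. Counts over the 38 are therefore descriptions of those tested, and for N-inv against PBS the members higher among all 40 are also counted below. With no filter, 10 of 40 members had an unadjusted limma p under 0.05 for N-inv against PBS (4.89% of all probe sets). It was 4 for N-inv against SC (7.53%), 4 for SC against PBS (6.76%) and 9 for N-inv against both controls (5.94%).

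Before the results, 1 array has to be set apart. The labels give all mice as male, yet SC replicate 2 held 13042 of Xist, which female cells use to silence an X chromosome, against 138.3 to 228.1 elsewhere. The Y-linked gene Eif2s3y was at 3147 in that same array and between 1342 and 2647 in the others. The SC arrays also correlated least with each other, at 0.965, against 0.983 in PBS and 0.984 in N-inv (Pearson's r over the tested probe sets). RNA quality, read as Actb control signal at the 3' end over that at the 5' end, gave 3.81 and 4.70 for SC against 3.05 to 3.57 for the remaining arrays. The same ratio of Gapdh was 2.82 and 3.02 for PBS, 3.12 and 3.38 for N-inv, and 3.52 and 3.38 for SC, so it was higher in both N-inv arrays than in both PBS arrays. The part of RNA quality in the differences was not tested. Values that involve SC are therefore given for each array, and with and without SC replicate 2 where it matters.

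Among markers of the cord's own cells, those of neurons, astrocytes and oligodendrocytes were all tested where the annotation named them, and 7 of 8 motor neuron markers were tested. Of 6 sensory neuron markers on the array, 5 lay below the cutoff in their mean, namely Scn10a, Scn11a, Trpv1, P2rx3 and Avil, and Isl2 was above it. The summed intensity of the sensory neuron markers lay between 694.3 and 717.4 in N-inv and between 620.9 and 805.1 in the 4 control arrays. In bulk tissue, more cells of a type and more RNA per cell cannot be told apart.

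Of the 40 genes, Sprr1a stood highest above PBS in N-inv, and Socs3 was above PBS in both N-inv arrays and both SC arrays. Their promoters are shown because Jun and Atf3 act through AP-1 and CRE motifs and Stat3 through STAT motifs, and these 2 genes hold such matches. RefSeq promoter sequences (GRCm38.p6) were matched by symbol for 29 of the 40 genes. The 250 bases before the annotated start are printed, with motif matches in capitals:
Sprr1a (chr3:92485882-92486131, minus strand): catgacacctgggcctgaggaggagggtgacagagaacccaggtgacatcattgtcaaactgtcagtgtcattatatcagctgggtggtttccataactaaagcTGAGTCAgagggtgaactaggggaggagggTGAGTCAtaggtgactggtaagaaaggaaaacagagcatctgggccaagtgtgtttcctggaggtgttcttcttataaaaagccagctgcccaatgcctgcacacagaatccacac
Socs3 (chr11:117969367-117969616, minus strand): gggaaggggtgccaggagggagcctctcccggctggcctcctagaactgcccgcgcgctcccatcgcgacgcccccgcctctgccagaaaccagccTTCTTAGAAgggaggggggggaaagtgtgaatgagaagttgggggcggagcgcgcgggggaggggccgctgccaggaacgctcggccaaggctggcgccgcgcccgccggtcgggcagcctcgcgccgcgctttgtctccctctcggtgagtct
The capitals in Sprr1a are 2 matches to the AP-1 motif TGANTCA, at positions -146 and -116 from the start, and those in Socs3 are a match to the STAT motif TTCNNNGAA at -154. These motifs and the CRE motif TGACGTCA each equal their own reverse complement, so 1 search covers both strands, and no AP-1 match lies inside a CRE match. Over windows of 300 bases, AP-1 matched 7.81% of all 32851 promoters and 5 of the 32 promoters of members, STAT 8.3% and 1 of 32, and CRE 1.79% and 0 of 32. The other members with an AP-1 match were Nts, Plaur, Ddit3 and Dclk1, of which Nts lay lower in N-inv than in PBS. In 12 members both N-inv arrays lay above all 4 control arrays. Of these 8 had a promoter sequence, and only Sprr1a held a match to any of the motifs. A match describes letters in a window and is no evidence of binding.

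The first comparison set the nerve injection model against the PBS model. In N-inv the growth and injury genes Sprr1a, Atf3, Gal, Socs3, Npy, Sdc1, Itga7, Ecel1, Gap43 and L1cam had the smallest unadjusted p against PBS, with differences of 0.43 to 4.63 on the log2 scale. Of the 38 tested members 35 were higher, where 55.4% of all 27022 probe sets were, and with no filter 36 of 40 were higher. Their median difference was 0.27, against 0.02 over all probe sets tested. In limma 0 members and 0 of 27022 probe sets (0%) had an adjusted p under 0.05, and every member's adjusted p rounded to 1. Those 10 genes had an unadjusted p under 0.05, all higher in N-inv, where 4.06% of all probe sets had such a p in either direction, 2.28% higher and 1.78% lower. The N-inv arrays lay above both PBS arrays for 28 of the 38, against 21.6% of all probe sets, and below both for Klf6 and Nts, against 14.6%. Set singly against the PBS mean, 34 members were higher in each N-inv array (55.1% and 56% of all probe sets), while SC replicate 1 had 16 such members (36.8%) and replicate 2 had 33 (56.9%).

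Sprr1a passed the adjusted threshold in some fits and only with the filter, which it had itself passed through its high arrays, so these calls lend no support. Its limma adjusted p was 0.0415 with only PBS and N-inv in the fit, 0.0392 without SC replicate 1, and the same without SC replicate 2. With no filter, an alternative chosen after seeing the data, it was 0.449 in each of these 3 fits. Its difference was 4.63 in all of them.

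**Figure D1:**
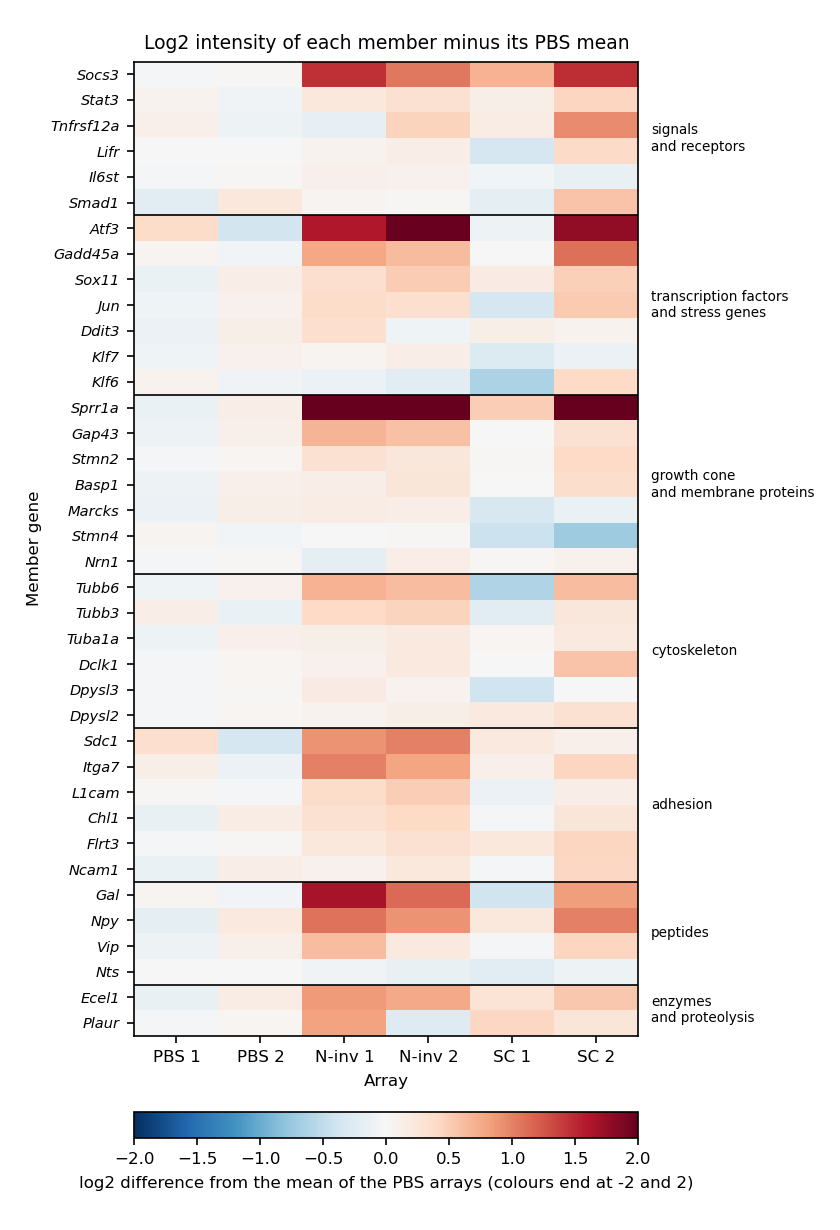
Each cell is the log2 intensity of a member in 1 array minus the mean of that member over the PBS arrays, with members grouped by role and colours ending at -2 and 2. In each N-inv array 34 of 38 members lay above the PBS mean, against 33 for SC replicate 2 and 16 for SC replicate 1.

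Among the signals and receptors, the list held Il6st and Lifr, subunits of the receptors for cytokines of the interleukin-6 family, and Stat3 and Socs3, the transcription factor below them and its feedback inhibitor. It also held Smad1, which carries BMP signals, and Tnfrsf12a, the receptor for TWEAK. All 6 were higher in N-inv than in PBS, by a median of 0.12, but only Socs3 by more than 1. Socs3 measured 333.9 and 347.0 (PBS), 986.6 and 732.5 (N-inv), and 568.0 and 990.9 (SC). Its PBS arrays lay below the other 4 arrays, and N-inv and SC overlapped. The difference from PBS was 1.26 ± 0.28 (SE) in N-inv and 1.09 ± 0.28 (SE) in SC (limma adjusted p = 0.507 for SC). A second tested probe set of Socs3 measured 314.6 and 268.9 (PBS), 918.8 and 716.9 (N-inv), and 349.1 and 715.0 (SC), so there SC replicate 1 was near PBS. In its dimmest tested probe set N-inv, at 410.3 and 224.5, overlapped PBS, at 246.5 and 163.8.

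Stat3 measured 2273 and 2060.0 (PBS), 2519.8 and 2681 (N-inv), and 2360.3 and 2924 (SC). PBS lay below the other arrays, N-inv lay inside the range of SC, and the difference from PBS was 0.26 ± 0.18 (SE). Its second probe set gave 0.60 and its dimmest gave -0.43, so the probe sets of this gene disagree in sign. Il6st measured 3160.0 and 3279 (PBS), 3437 and 3435 (N-inv), and 3082 and 2907 (SC). The N-inv arrays lay above all controls and both SC arrays below all others, with a difference from PBS of 0.09 ± 0.15 (SE). In the other tested probe sets of Il6st N-inv overlapped PBS, the brighter at 3639 and 3277 (N-inv) against 3010 and 3676 (PBS). Smad1 and Lifr differed from PBS by 0.04 and 0.10, and the groups overlapped for Smad1. Tnfrsf12a had 682.0 and 584.2 (PBS), 559.6 and 868.9 (N-inv), and 699.1 and 1246 (SC), highest in SC replicate 2.

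The transcription factors and stress genes were led by Atf3, a factor scarcely present in intact neurons and induced by axon damage. Atf3 measured 238.9 and 135.1 (PBS), 600.2 and 787.1 (N-inv), and 165.8 and 679.8 (SC). Both N-inv arrays and SC replicate 2 were high, PBS and SC replicate 1 were low, and N-inv and SC overlapped. N-inv differed from PBS by 1.79 ± 0.58 (SE) and from SC by 0.96 ± 0.58 (SE). Gadd45a, a stress gene induced by DNA damage and axotomy, had 329.1 and 301.6 (PBS), 558.3 and 504.7 (N-inv), and 313.2 and 701.8 (SC). Both N-inv arrays and SC replicate 2 were again the high ones, SC replicate 2 highest, and N-inv differed from PBS by 0.71 ± 0.34 (SE).

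Sox11, a factor of developing and regenerating neurons, measured 717.8 and 861.6 (PBS), 1002 and 1127 (N-inv), and 882.8 and 1101 (SC). PBS lay below the other arrays and N-inv overlapped SC, with 0.42 ± 0.19 (SE) for N-inv against PBS. Of its 5 tested probe sets 3 were higher in N-inv, and the range ran from -0.17 to 0.48. Jun, the JNK target that pairs with Atf3, was 0.35 higher than in PBS and its lowest and highest arrays were both of SC, 1436 and 2643.

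Klf6 and Klf7 are Krüppel-like factors that promote axon growth. Klf7 measured 2489 and 2782 (PBS), 2735 and 2874 (N-inv), and 2168 and 2433 (SC), so both SC arrays lay below the others and N-inv overlapped PBS, with 0.28 ± 0.16 (SE) for N-inv against SC. Klf6 was lower in N-inv than in PBS by all of its 4 tested probe sets, between -0.17 and -0.05. Ddit3, the stress factor CHOP, differed from PBS by 0.13, with overlapping groups. Ankrd1, a repeat protein induced in injured neurons and abundant in muscle, lay below the cutoff with 10.9 and 24.5 (PBS), 55.8 and 65.2 (N-inv), and 135.0 and 49.1 (SC), and was not tested. Of 6 skeletal muscle markers 5 were below the cutoff as well.

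The growth cone and membrane proteins held the widest difference of the list. Sprr1a, a small proline-rich protein of the skin barrier that injured neurons also make and that promotes axon outgrowth, measured 112.4 and 141.4 (PBS), 4136 and 3362 (N-inv), and 186.8 and 2299 (SC). The N-inv pair lay above all others, SC replicate 2 came next, and PBS and SC replicate 1 were low. The log2 difference of N-inv from PBS was 4.63 ± 0.96 (SE), measured against PBS levels under the filter cutoff. Against SC the difference was 2.42 ± 0.96 (SE) (limma adjusted p = 0.542). Without SC replicate 2 it was 4.14 (adjusted p = 0.104) and without SC replicate 1 it was 0.69 (adjusted p = 0.263), both in limma. Of the 6 keratinocyte markers on the array, Krt5, Krt14, Sprr1b and Krtdap lay below the cutoff, while Krt10, at 677.3 to 895.4 over the arrays, and Krt1, at 230.5 to 433.8, lay above it. Both N-inv arrays of Krt1 lay below all 4 controls, and Krt10 overlapped. Sprr1b, the relative of Sprr1a, measured 90.3 and 2.4 (PBS), 3.3 and 5.9 (N-inv), and 7.1 and 3.3 (SC).

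Gap43, the growth cone protein that marks axon growth, measured 4624 and 5286 (PBS), 7965 and 7410.0 (N-inv), and 4901 and 6089.8 (SC). The N-inv arrays lay above all 4 controls, which overlapped each other, with differences of 0.63 ± 0.18 (SE) from PBS and 0.49 ± 0.18 (SE) from SC. Basp1 and Marcks are membrane proteins of the same functional class. Marcks measured 8882 and 10369 (PBS), 10664 and 10522 (N-inv), and 7642 and 8733 (SC), so N-inv lay above PBS and SC, by 0.14 ± 0.17 (SE) and 0.37 ± 0.17 (SE). In Marcks, 5 of 6 tested probe sets were higher in N-inv than in PBS, and the lowest difference was -0.23. Basp1 had N-inv above PBS and inside the range of SC, at 0.19 over PBS.

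The stathmins bind tubulin and set microtubule turnover. Stmn2, the growth-associated member, was 0.27 higher in N-inv than in PBS, where it measured 16338 and 17200.4. Stmn4 measured 8967 and 8259 (PBS), 8683 and 8794 (N-inv), and 6373 and 5276 (SC). N-inv and PBS overlapped and both SC arrays lay below them, with 0.59 ± 0.17 (SE) for N-inv against SC (adjusted p = 0.46 in limma) and -0.57 ± 0.17 (SE) for SC against PBS. Nrn1, a growth-promoting protein of neurons, differed from PBS by -0.02.

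**Figure D2:**
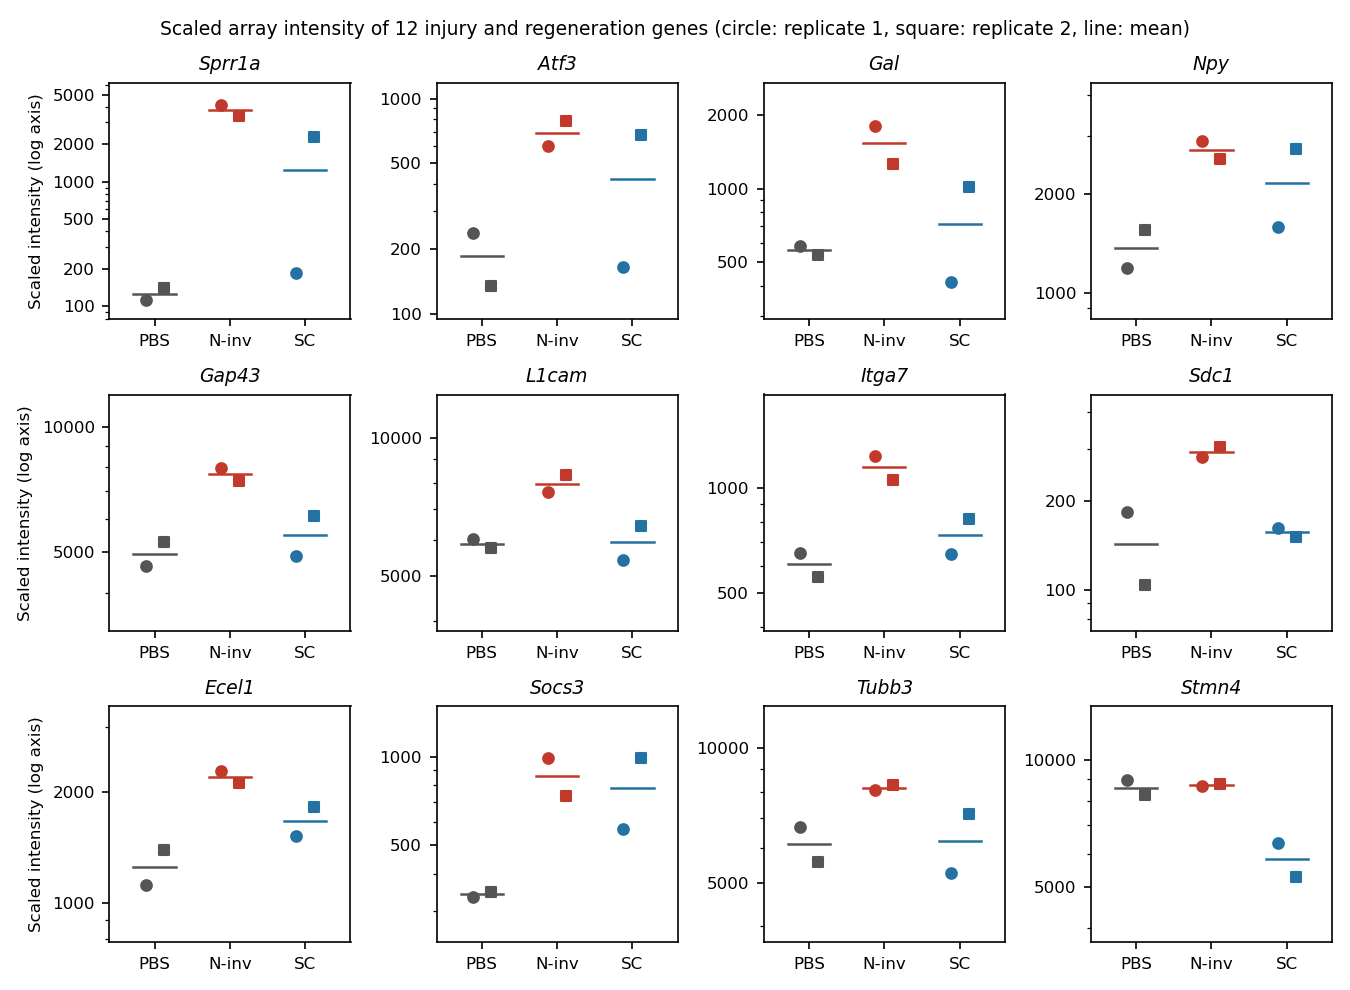
Scaled intensity on a log axis for 12 members, with a circle for replicate 1, a square for replicate 2 and a line for the mean of each group. In Sprr1a, Gal, Gap43, L1cam, Itga7, Sdc1, Ecel1 and Tubb3 both N-inv arrays lie above all 4 control arrays, while in Atf3, Npy and Socs3 SC replicate 2 reaches the N-inv level.

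The cytoskeletal members were higher in N-inv than in PBS in 6 of 6 cases, by a median of 0.15. Tubb3, the beta tubulin of neurons, measured 6667 and 5577 (PBS), 8060.2 and 8284 (N-inv), and 5264 and 7127 (SC). Both N-inv arrays lay above all controls, by 0.42 ± 0.20 (SE) over PBS and 0.41 ± 0.20 (SE) over SC. Tubb6, a beta tubulin induced in regrowing axons, had 366.5 and 414.1 (PBS), 647.8 and 614.0 (N-inv), and 248.3 and 614.6 (SC), so its N-inv level was reached in SC replicate 2. Its dimmer probe set was lower in N-inv than in PBS, by -0.16. Tuba1a, an alpha tubulin of growing neurons, differed from PBS by 0.15.

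Dpysl2 and Dpysl3 belong to the collapsin response mediators, which bind tubulin and steer growth cones. Dpysl2 measured 33476 and 35251 (PBS), 35938 and 37143 (N-inv), and 39159 and 42311 (SC). The groups stood in the order PBS, N-inv, SC with no overlap, at 0.09 ± 0.15 (SE) for N-inv against PBS and -0.16 ± 0.15 (SE) against SC. With quantile normalization the difference of N-inv from PBS had the opposite sign, at -0.0089, as it had with the mean of its probe sets, at -0.0026. Against SC the dimmer probe set of Dpysl2 gave 0.485, opposite in sign to the brightest. Dpysl3 measured 3979.7 and 4130.1 (PBS), 4528 and 4254 (N-inv), and 3081 and 4066 (SC), and both N-inv arrays lay above the controls by 0.11 ± 0.19 (SE) over PBS and 0.31 ± 0.19 (SE) over SC. In Dpysl3, 2 of 3 tested probe sets were higher in N-inv than in PBS, and the lowest difference was -0.03. Dclk1, a microtubule-binding kinase, differed from PBS by 0.14, and 7 of its 8 tested probe sets were higher in N-inv.

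Adhesion molecules formed the group with the most members clear of every control: in 4 of 6, namely Itga7, Sdc1, L1cam and Chl1, both N-inv arrays lay above all 4 control arrays, as 9.07% of all probe sets did. All 6 were higher than PBS, by a median of 0.39. Itga7, the laminin receptor subunit that supports motor axon regrowth, measured 654.4 and 557.1 (PBS), 1239 and 1059 (N-inv), and 648.8 and 819.0 (SC). N-inv differed from PBS by 0.90 ± 0.19 (SE) and from SC by 0.63 ± 0.19 (SE) (limma adjusted p = 0.461 against SC). Sdc1, a heparan sulfate proteoglycan of the cell surface, measured 182.7 and 103.8 (PBS), 281.7 and 304.5 (N-inv), and 162.3 and 151.2 (SC). Its differences were 0.96 ± 0.24 (SE) and 0.81 ± 0.24 (SE), and both SC arrays lay within the range of PBS. The PBS and SC means of Sdc1 lay near the filter cutoff, and a second tested probe set gave 0.35, with N-inv above SC but inside the range of PBS.

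L1cam and Chl1 are related axonal adhesion molecules of the immunoglobulin family. L1cam measured 6016 and 5764 (PBS), 7617 and 8290.4 (N-inv), and 5436 and 6436 (SC). It lay above every control in N-inv, by 0.43 ± 0.17 (SE) over PBS and 0.42 ± 0.17 (SE) over SC, while its dimmer probe set gave -0.11 against SC. Chl1 measured 6017 and 7428 (PBS), 8299 and 8798 (N-inv), and 6592 and 7953 (SC), with 0.35 ± 0.19 (SE) over PBS. Ncam1, the neural cell adhesion molecule, differed from PBS by 0.15, and its 6 tested probe sets split evenly, 3 higher in N-inv. Flrt3, a membrane protein with leucine-rich repeats, measured 1082 and 1108 (PBS), 1265 and 1353 (N-inv), and 1268 and 1492 (SC). For Flrt3 PBS lay below the other arrays and N-inv overlapped SC, with 0.25 ± 0.16 (SE) over PBS.

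Of the peptides, galanin and neuropeptide Y are induced in axotomised neurons. Gal measured 583.1 and 532.8 (PBS), 1802 and 1258 (N-inv), and 415.9 and 1010.3 (SC). Both N-inv arrays lay above all controls, SC replicate 2 came next and SC replicate 1 was the lowest of the 6. The mean in N-inv was 2.74 times that in PBS, with log2 differences of 1.39 ± 0.39 (SE) from PBS and 1.18 ± 0.39 (SE) from SC. Npy measured 1184 and 1551 (PBS), 2893 and 2551 (N-inv), and 1581 and 2741 (SC). PBS lay below the other arrays and SC replicate 2 lay between the N-inv arrays, with 0.99 ± 0.28 (SE) for N-inv against PBS and 0.38 ± 0.28 (SE) against SC. Vip, the vasoactive intestinal peptide, had N-inv above PBS by 0.41 ± 0.24 (SE) and overlapped SC. Nts, neurotensin, measured 1207 and 1209 (PBS), 1144 and 1091 (N-inv), and 1028 and 1123 (SC), so here PBS was highest, and N-inv differed from it by -0.11 ± 0.15 (SE).

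Ecel1, a membrane peptidase induced in motor and sensory neurons by nerve injury, measured 1119 and 1395 (PBS), 2283 and 2121 (N-inv), and 1523 and 1828 (SC). The groups stood in the order PBS, SC, N-inv with no overlap, by 0.80 ± 0.19 (SE) for N-inv over PBS and 0.39 ± 0.19 (SE) over SC. Plaur, the urokinase receptor, had 137.2 and 146.5 (PBS), 268.1 and 114.3 (N-inv), and 198.2 and 171.5 (SC), so its N-inv arrays disagreed. Arg1, the arginase tied to regrowth of axons and to macrophages, lay below the cutoff at 66.1 and 64.6 (PBS), 6.2 and 7.0 (N-inv), and 7.2 and 28.2 (SC), and was not tested.

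**Figure D3:**
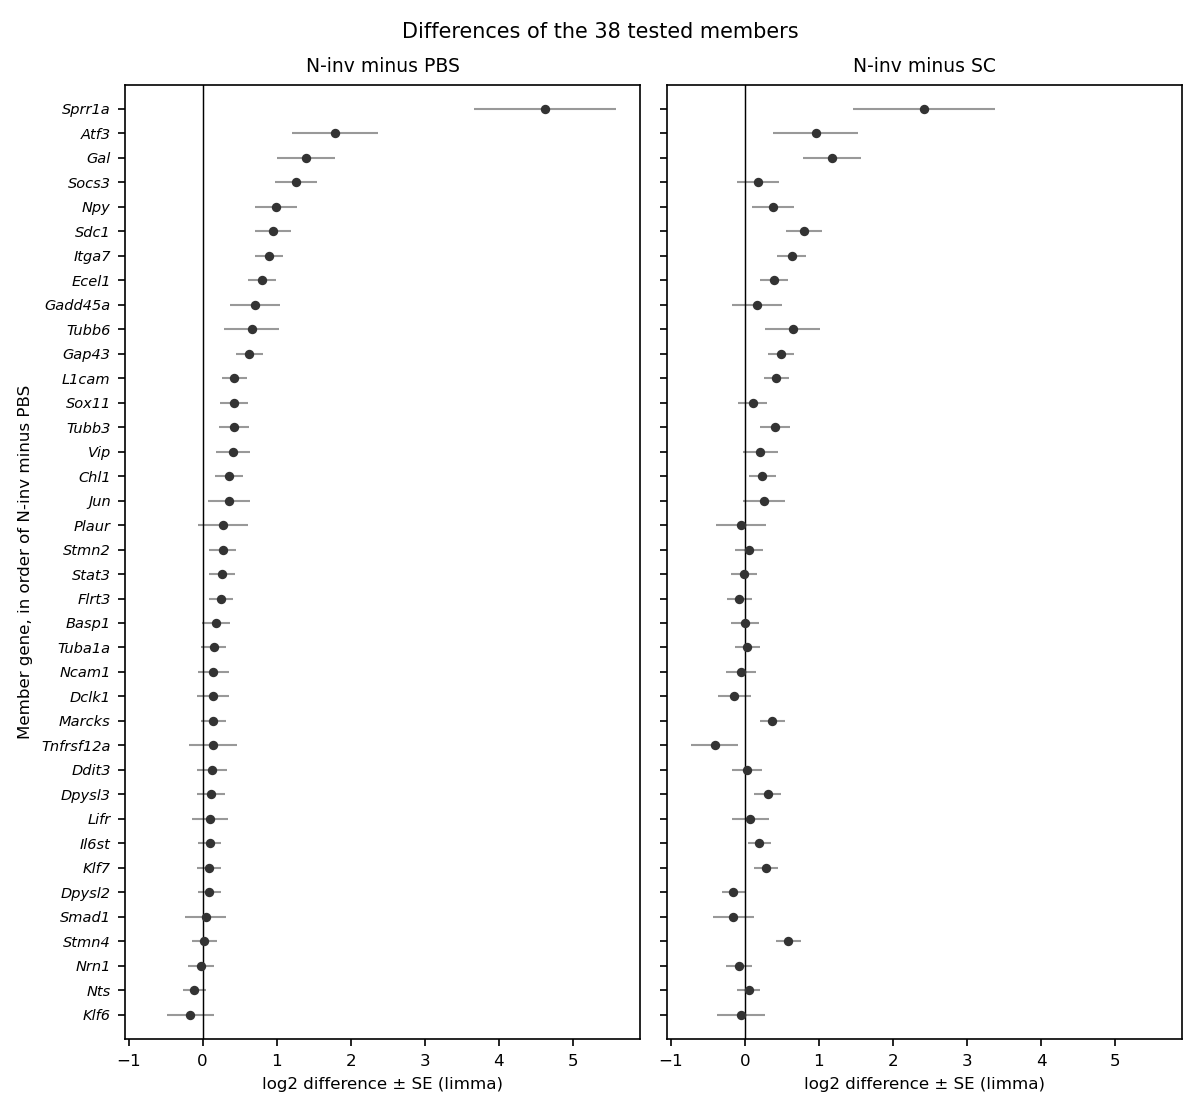
Points are log2 differences of the 38 tested members, N-inv minus PBS on the left and N-inv minus SC on the right, with bars of 1 SE from limma and genes in the order of the left panel. Sprr1a is at 4.63 and 2.42, and 35 and 28 members lie above 0.

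The second comparison set the nerve injection model against the subcutaneous model. The adhesion, growth cone and peptide genes Sdc1, Itga7, L1cam, Gap43, Sprr1a, Stmn4 and Gal had an unadjusted p under 0.05, all higher in N-inv. Of the 38 tested members 28 were higher and 10 lower, with a median of 0.19 against 0.05 over all probe sets, of which 58% were higher. In limma 0 members were called (0% of all probe sets), and 8.94% of probe sets had an unadjusted p under 0.05, 5.96% higher and 2.99% lower. The smallest adjusted p among members was 0.46, for Stmn4. Both N-inv arrays lay above both SC arrays for 14 of the 38, against 23.6% of all probe sets, and below both for Dpysl2 alone, against 13.3%. The median rested on the choice of SC array: it was 0.44 without SC replicate 2 and -0.01 without SC replicate 1. In these fits 18 and 6 members had an unadjusted p under 0.05, against 16.3% and 15.2% of all probe sets.

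The third comparison set the subcutaneous model against the PBS model. Socs3 was higher and Stmn4 lower in both SC arrays, and these were the 2 members with an unadjusted p under 0.05. Of the 38 tested members 31 were higher, where 46% of all probe sets were, and the median was 0.19 against -0.02. In limma 0 members were called (0% of all probe sets), with 7.92% of probe sets at an unadjusted p under 0.05, 2.76% higher and 5.17% lower. Both SC arrays lay above both PBS arrays for 10 members, against 14.2% of probe sets, among them Socs3, Npy, Ecel1, Sox11 and Sprr1a. For 5 members, Il6st, Klf7, Marcks, Stmn4 and Nts, both SC arrays lay below both PBS arrays, against 20.2% of probe sets. Without SC replicate 1 the median was 0.40 and Sprr1a was at 3.94 (limma adjusted p = 0.0386, and 0.364 with no filter). Without SC replicate 2 the median was -0.01 and Sprr1a was at 0.48 (limma adjusted p = 0.393). The comparisons share arrays and are not independent of each other.

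Within the SC group the arrays differed over these genes. SC replicate 2 was above replicate 1 in 33 of 38 members, where 64.3% of all probe sets were, with a median of 0.34 against 0.15. The difference passed 1 on the log2 scale in 6 members, Sprr1a, Atf3, Gal, Tubb6, Gadd45a and Klf6, against 2.96% of all probe sets. Sprr1a was 12.3 times as bright in SC replicate 2 as in replicate 1, and Atf3 4.1 times. In N-inv and PBS 0 members had replicate 2 above replicate 1 by more than 1, where 0.596% and 0.648% of all probe sets did, and the member medians were -0.01 and 0.07. Replicate 2 was above replicate 1 in 18 members in N-inv and in 27 in PBS, where 51% and 59.9% of all probe sets were. Plaur differed the other way between the N-inv arrays, by -1.07. SC replicate 2 lay more than 0.5 above the PBS mean in 12 members, as N-inv replicate 2 did, against 8.79% and 4.53% of all probe sets, and N-inv replicate 1 did so in 13, against 4.69%. SC replicate 1 did so in 1, Socs3, against 5.38% of all probe sets. Gap43, Sdc1 and Itga7 were above 0.5 in both N-inv arrays and in neither SC array. SC replicate 2 is the array with Xist and the highest Actb ratio, and the part of either in these differences was not tested.

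**Figure D4:**
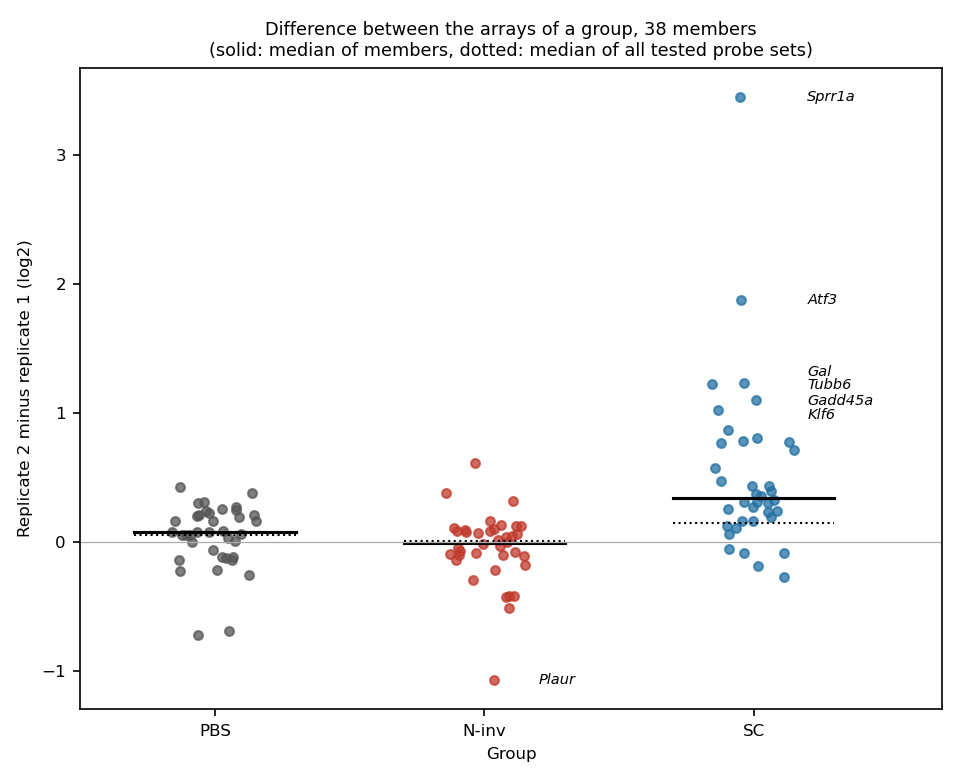
Points are the 38 tested members, each as the log2 difference of replicate 2 minus replicate 1 within its group, with a solid line at the median of members and a dotted line at that of all tested probe sets. In SC the solid line is at 0.34, with Sprr1a at 3.45 and Atf3 at 1.88, while in N-inv and PBS it is near 0.

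The last comparison set N-inv against PBS and SC averaged. The same 10 genes as against PBS had an unadjusted p under 0.05, where 5.77% of all probe sets had one, 3.46% higher and 2.31% lower. Of the 38 tested members 32 were higher, where 59% of all probe sets were. Both N-inv arrays lay above all 4 control arrays for 12 of the 38, namely Il6st, Gap43, Marcks, Sprr1a, Tubb3, Dpysl3, Chl1, L1cam, Itga7, Sdc1, Gal and Ecel1, against 9.07% of all probe sets. For 0 of the 38 were both below all 4, against 4.64%. These counts use the brightest probe set. Some other tested probe sets of Il6st, Marcks, Dpysl3, Sdc1 and L1cam did not place N-inv above all 4 controls. Differences from the mean of both controls were 3.52 ± 0.83 (SE) for Sprr1a, 1.29 ± 0.34 (SE) for Gal, 0.88 ± 0.21 (SE) for Sdc1 and 0.77 ± 0.17 (SE) for Itga7. The median over members was 0.23, against 0.04 over all probe sets. In limma 0 members were called (0% of all probe sets), the smallest adjusted p of a member being 0.767, for Itga7. Without SC replicate 2 Sprr1a was at 4.39 (limma adjusted p = 0.0367, and 0.393 with no filter).

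Several members were read by more than 1 probe set, joined by gene symbol, and these may read different transcripts of the gene. Of 85 tested probe sets of members 67 were higher in N-inv than in PBS, against 55.4% of all probe sets, and in 19 both N-inv arrays lay above all 4 controls, against 9.07%. Of the 20 members with several tested probe sets, 11 had all of them on the same side of PBS. Those with every probe set higher included Socs3 (0.54 to 1.40), Sdc1 (0.35 to 0.96), L1cam (0.36 to 0.43), Chl1 (0.34 to 0.35), Stmn2 (0.27 to 0.35) and Klf7 (0.09 to 0.31). Probe sets disagreed in sign for the other 9, Stat3, Smad1, Sox11, Marcks, Tubb6, Dpysl2, Dpysl3, Dclk1 and Ncam1. Sprr1a, Atf3, Gal, Npy, Gap43, Itga7 and Ecel1 were read by 1 probe set each, so their values have no other probe set beside them.

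**Figure D5:**
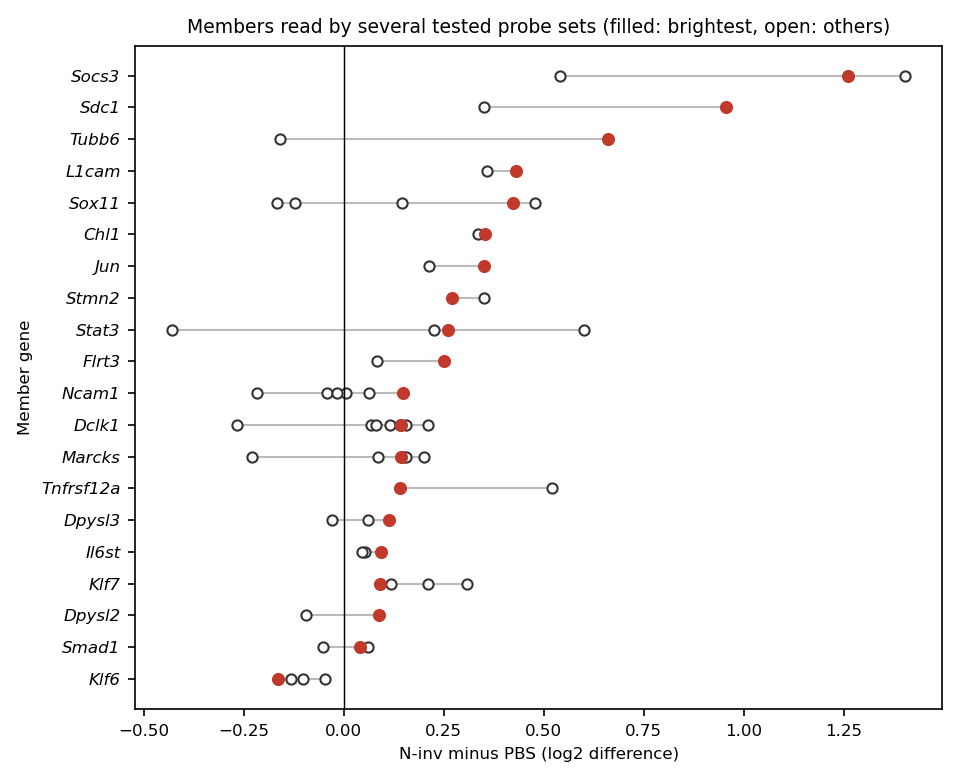
Each row is a member with several tested probe sets, placed by the log2 difference of N-inv minus PBS, the filled point being the brightest probe set and open points the others. The probe sets of Socs3, Sdc1, L1cam and Chl1 all lie above 0, and those of Stat3 run from -0.43 to 0.60.

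Other genes of the same pathways were read from 5 lists that share no gene with the 40. Their medians for N-inv against PBS lay between 0.04 and 0.38, and 0 genes of any list were called in limma in the comparisons with PBS or SC. In the list of other regeneration-associated genes 17 of 20 tested were higher than PBS, against 55.4% of all probe sets. Among the 17, 5 had an unadjusted p under 0.05, as did 1 lower gene. Over all probe sets 2.28% (higher) and 1.78% (lower) had such a p. Among the 5 was Myc, whose PBS arrays, at 71.2 and 139.4, lay below the filter cutoff. Vgf, a secreted neuronal peptide precursor, measured 2744 and 2875 (PBS), 6319 and 6383 (N-inv), and 3541 and 6468 (SC). Hspb1, a small heat shock protein of surviving axotomised neurons, measured 3020.0 and 3144 (PBS), 4560.2 and 4939 (N-inv), and 3730.2 and 4983 (SC). Adcyap1, the precursor of the peptide PACAP, measured 932.9 and 1179.7 (PBS), 1805 and 1552 (N-inv), and 1327 and 1666 (SC). In these 3 genes PBS lay below the other arrays. Lgals1, a lectin that supports axon growth, measured 11146 and 9381 (PBS), 14824 and 12516 (N-inv), and 8917 and 10535 (SC), with both N-inv arrays above all controls. Against SC the 20 genes were evenly split, 10 higher and 10 lower, where 58% of all probe sets were higher.

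In the cytokine and JAK-STAT list 6 of 10 tested genes were higher than PBS and 4 lower, where 55.4% of all probe sets were higher. Osmr, the receptor for oncostatin M, measured 780.6 and 849.6 (PBS), 1622 and 1522 (N-inv), and 825.0 and 1332 (SC), with both N-inv arrays above all controls and a difference of 0.93 ± 0.24 (SE) from PBS. Cish, a feedback inhibitor of STAT signals, measured 625.9 and 567.0 (PBS), 404.1 and 413.7 (N-inv), and 511.7 and 450.3 (SC), with both N-inv arrays below all controls. Of the cytokines Il6 and Lif were below the cutoff, while Osm, the ligand of Osmr, measured 158.2 and 171.3 (PBS), 154.5 and 196.6 (N-inv), and 181.6 and 189.5 (SC), and Clcf1 183.0 and 149.0 (PBS), 92.6 and 156.4 (N-inv), and 208.2 and 131.9 (SC). Both overlapped between N-inv and PBS. In limma neither Osmr nor Cish was called. The DLK-JNK list held kinases that carry the signal of axon damage and also other genes, such as Mapk8ip1 and Junb. Of its 12 tested genes 11 were higher than PBS, against 55.4% of all probe sets. The median difference of the 12 was 0.12. The scaffold Mapk8ip1 measured 910.9 and 915.4 (PBS), 1319.8 and 1266 (N-inv), and 903.4 and 919.4 (SC). Both N-inv arrays of Mapk8ip1 lay above the controls, by 0.49 ± 0.15 (SE) over PBS. Junb, a partner of AP-1 complexes, had 416.1 and 387.2 (PBS), 531.4 and 525.4 (N-inv), and 411.6 and 435.1 (SC).

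In the integrated stress response list 8 of 10 tested genes were higher than PBS, against 55.4% of all probe sets, and the median of the list was 0.05. Of the 10, 0 had an unadjusted p under 0.05 against PBS (4.06% of all probe sets) or against SC (8.94%). Chac1, a target of the stress factor Atf4, measured 1481 and 1385 (PBS), 1659.6 and 1662 (N-inv), and 1076 and 1417 (SC), with both N-inv arrays above all controls. Ppp1r15a, a subunit that ends the stress response, measured 704.4 and 626.0 (PBS), 618.5 and 788.8 (N-inv), and 773.8 and 1169.8 (SC), with N-inv overlapping both other groups. Ddit4, a stress-induced inhibitor of growth signalling, measured 5225 and 7020.2 (PBS), 3064 and 3467 (N-inv), and 2924 and 11127 (SC), so that both N-inv arrays lay below PBS. Of 4 tested genes of neuronal cell death all 4 were higher in N-inv than in PBS, where 55.4% of all probe sets were. Hrk, a death protein induced by JNK signalling, measured 109.6 and 191.1 (PBS), 262.3 and 288.3 (N-inv), and 128.4 and 246.0 (SC), while Pmaip1, the death protein Noxa, measured 131.5 and 101.9 (PBS), 213.7 and 173.7 (N-inv), and 228.3 and 294.9 (SC). In Hrk both N-inv arrays lay above all controls, and in Pmaip1 they lay between PBS and SC.

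Markers of glia were measured beside the members, and 55.4% of all probe sets were higher in N-inv than in PBS. Microglia markers were higher in N-inv than in PBS in 6 of 6 tested, by a median of 0.65, with a summed intensity over the 8 on the array of 23203 to 27723 (N-inv), 17192 to 17870 (PBS) and 14740 to 17292 (SC). Itgam and Trem2 were below the cutoff. Sums of intensity, here and for the other cell types, weigh the brightest genes most. In the microglia sum Csf1r alone made up 13313 in PBS replicate 1 and 21177 in N-inv replicate 1. Astrocyte markers were higher in 5 of 6, summing to 125797 and 127554 (N-inv), 97984 and 109055 (PBS), and 83471 and 118446 (SC replicates 1 and 2). Gfap, the intermediate filament of astrocytes, measured 6653 and 7914 (PBS), 20479 and 19174 (N-inv), and 4632 and 15348 (SC). Motor neuron markers were mixed, 3 of 7 higher than PBS with a median of -0.03, and their sums overlapped, at 11086 and 13494 (N-inv), 9636 and 13198 (PBS) and 7240 and 10440.0 (SC). Neuron markers were higher in 6 of 7 by a median of 0.08, summing to 243431 and 258263 (N-inv), 233590 and 242111 (PBS), and 233143 and 264780 (SC). Oligodendrocyte markers gave sums of 149992 and 150668 (N-inv) and 137301 and 148394 (PBS). The part of these markers in the values of the members was not tested.

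Markers of cells outside the cord gave sums that overlapped between N-inv and PBS for monocytes and macrophages (2857 and 3018 against 2337 and 2927), Schwann cells (6922 and 7089 against 6389 and 7524) and fibroblasts (23240 and 24538 against 19823 and 25088). Ccr2 and Chil3 of monocytes were below the cutoff in their mean, though Chil3 was at 470 in SC replicate 2. Of the other 3 markers Lyz2 measured 1241 and 1688 (PBS), 1954 and 1822 (N-inv), and 1221 and 1311 (SC), with both N-inv arrays above all controls, Mrc1 overlapped PBS, and Cd163 was lower in N-inv than in PBS. Of the endothelial markers 2 of 3 tested were higher, with sums of 3893 and 6342 against 3780 and 4385. Skeletal muscle markers summed to 639.8 and 963.6 (N-inv) and 606 and 683.8 (PBS), and keratinocyte markers to 1137 and 1065 (N-inv) and 1461 and 1325 (PBS).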

How the data were processed

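Labelled cRNA from total RNA of L1 cord was hybridised to Affymetrix arrays, per the labels' protocols. The deposited values are linear intensities per probe set, and since the 2% trimmed mean of every array was 1000, the authors scaled each array before deposit. The summarisation of probes is not stated in these sources. Precision is limited by the number of arrays. The 64 control probe sets were left out, and 34945 of the remaining 45037 have 1 gene symbol, 932 several and 9160 none. The 40 members and all lists were chosen with earlier results of these data known. Two-sided tests came from limma 3.58.1 under R 4.3.3 (lmFit, then eBayes), fitted once to the 6 arrays (residual df 3, prior df 3.72), and p-values were adjusted by Benjamini-Hochberg over 27022 probe sets, with a threshold of 0.05. The script was tested on simulated data. The promoter search was widened to all members. Members were given in every array where both N-inv arrays lay beyond all 4 controls, where a group did not overlap the other 2, or where p was among the 12 smallest of the members in any comparison, and of each pathway list up to 4 genes with the smallest p in N-inv against PBS or against SC. List genes with no probe set of that single symbol were not analysed here. Other scalings, pseudocounts, filters, variance models, probe set rules, a replicate block and fits without each array were run.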

Additional observations from a re-analysis of the deposited data

How the results depend on the processing

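The count of members called was 0 in each of the 4 comparisons and stayed 0 under every alternative but the following, in which the called member was Sprr1a alone: it was 1 for N-inv against PBS with only the groups compared, and without single arrays it ranged from 0 to 1 in each comparison other than N-inv against SC. In these fits with no filter, run after seeing the data, the count was 0. A group left with 1 array was assumed to vary like the others. The median member difference for N-inv against SC ranged from -0.0098 to 0.44 without single arrays and for SC against PBS from -0.0103 to 0.40, in each case between the fits without SC replicate 1 and without SC replicate 2. For N-inv against PBS it stayed between 0.22 and 0.31 and for N-inv against both controls between 0.16 and 0.29 over all alternatives. Dim genes are limited by the pseudocount and the filter.

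The replicate number was not used as a pairing in the main fit. Deviations of same-numbered arrays correlated at -0.03 (SC and N-inv), 0.04 (SC and PBS) and 0.01 (N-inv and PBS). These values show no strong shared shift, but cannot tell whether same-numbered arrays were processed together. With the replicate block 0 members were called in each comparison, and an unadjusted p under 0.05 was reached by 11 members for N-inv over PBS (4.32% of all probe sets), 7 for N-inv over SC (9.1%), 2 for SC over PBS (7.82%) and 10 for N-inv over both controls (5.85%).

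The sign of the difference changed for some genes, not all of them near 0 with all arrays in the fit. There SC against PBS was 0.83 for Atf3 and 0.21 for Gal, and N-inv against SC was 0.38 for Npy. These changed sign only when an SC array was left out. With quantile normalization the difference was -0.0428 for Stmn4 (N-inv against PBS), -0.0089 for Dpysl2 (same comparison), -0.0208 for Nts (N-inv against SC), -0.0005 for Tubb3 (SC against PBS). With values as deposited it was -0.0131 for Stmn4 (N-inv against PBS). With the mean of all tested probe sets it was -0.0026 for Dpysl2 (N-inv against PBS), -0.10 for Sox11 (N-inv against SC), 0.16 for Dpysl2 (N-inv against SC), 0.0017 for Flrt3 (N-inv against SC), -0.17 for Dpysl2 (SC against PBS), -0.0331 for Sdc1 (SC against PBS), -0.0662 for Stat3 (N-inv against both controls), 0.081 for Dpysl2 (N-inv against both controls). Without single arrays, N-inv against PBS ranged from -0.0372 to 0.0813 for Stmn4. Without single arrays, N-inv against SC ranged from -0.21 to 0.56 for Socs3, -0.17 to 0.14 for Stat3, -0.0501 to 0.26 for Sox11, -0.19 to 0.044 for Flrt3, -0.0127 to 0.77 for Npy, -0.0069 to 0.12 for Nts. Without single arrays, SC against PBS ranged from -0.11 to 1.77 for Atf3, -0.0125 to 0.30 for Gap43, -0.21 to 0.22 for Tubb3, -0.39 to 0.004 for Dpysl3, -0.0367 to 0.27 for Chl1, -0.11 to 0.13 for L1cam, -0.19 to 0.49 for Sdc1, -0.40 to 0.83 for Gal. Without single arrays, N-inv against both controls ranged from -0.0604 to 0.0056 for Nts. Without SC replicate 2 and with no filter, SC minus PBS was -0.0203 for Chl1 and N-inv minus both controls 0.0037 for Nts.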
